A study of Mus musculus with 7 samples.

Results

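Adipocyte genes were described in the prostate of Nkx3.1-/- mice given vehicle or N-acetylcysteine (NAC), across 7 arrays. The genes are Car3, Retn, Fabp4, Adipoq, Cd36, Pck1, Plin1, Lpl, Cidec and Cfd. Of these 10 genes, 9 are present among the 18938 genes with a value, each with 1 probe set, and Cfd (adipsin) is not analysed here. The genes were selected on their levels on these same arrays, among them the level on NAC replicate 3 and the difference between NAC and vehicle, so their levels and their differences between vehicle and NAC are a description and carry no test. All mice were homozygous null for Nkx3.1, on a recombinant inbred B6/129 background, and 16 weeks old. The vehicle group (n = 3, replicates 1, 2 and 4) had plain drinking water and the NAC group (n = 4, replicates 1 to 4) had water with 5 mM NAC, an antioxidant and precursor of glutathione, for 13 weeks from weaning. RNA of 1 mouse was hybridized to each Affymetrix Mouse Gene 1.0 ST array. The authors left out 1 more vehicle array for quality reasons. The extraction protocol and the methods name the anterior prostate, and a tissue label names the whole prostate. Null mice alone were arrayed, so a wild-type level is not at hand, and the gene Nkx3.1 itself is not analysed here. Littermates were divided between treatment cages, and cage and treatment cannot be told apart.

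Adipocytes, the fat-storing cells of adipose tissue, take up fatty acids that lipoprotein lipase frees from circulating triglyceride, esterify them and keep them in a large lipid droplet coated by perilipin. They also secrete hormones such as adiponectin, resistin and leptin. PPAR gamma and C/EBP alpha drive the genes of the mature cell. The mouse prostate lobes lie in the pelvis beside fat pads, and the gland itself is made mainly of secretory epithelium in a smooth muscle stroma. Several of the genes are not confined to fat: Fabp4, Cd36 and Lpl are also made by macrophages or capillary endothelium, Car3 by skeletal muscle and liver, and Pck1 by liver and kidney.

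All values are log2 expression, on which 1 unit is a doubling of the summarized probe signal. The labelled tissue was set against its markers. The luminal keratin gene Krt8 was at 11.96 to 12.12 and the secretory gene Pbsn at 12.63 to 12.95 over the 7 arrays, and the list of 11 measured prostate epithelial markers had a mean level of 10.83 to 10.90 with vehicle and 10.82 to 11.02 on NAC replicates 1, 2 and 4, with 10.88 on NAC replicate 3. The array of NAC replicate 3 is described before any comparison, and the next count was not made for the other arrays. On NAC replicate 3, 23 of 18938 genes (0.121%) exceeded all 6 other arrays by over 1 log2 unit. Among them were lung genes (Sftpc at 10.51 and Scgb1a1 at 9.29, with at most 5.26 and 4.03 elsewhere), skeletal muscle genes and Xist. Of these 23 genes, 5 are adipocyte genes of this report. The 9 adipocyte genes and the other lists and genes compared between NAC and vehicle are therefore given with and without that array. The array medians lay between 7.12 and 7.16.

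All 9 adipocyte genes were highest on NAC replicate 3. Over all genes, 14.8% were highest on that array. The excess of NAC replicate 3 over the mean of the 6 other arrays ranged from 0.77 for Pck1 to 4.59 for Car3, with a median of 1.34, against a median of 0.00 over all 18938 genes. On the linear scale the median is a ratio of 2.53. Ranked by this excess among all genes, 6 of the 9 were in the first 20 and all 9 in the first 100, the lowest being Pck1 at rank 50. All 9 also exceeded each of the other arrays by over 0.5 log2 units, as 0.354% of genes did.

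**Figure D1:**
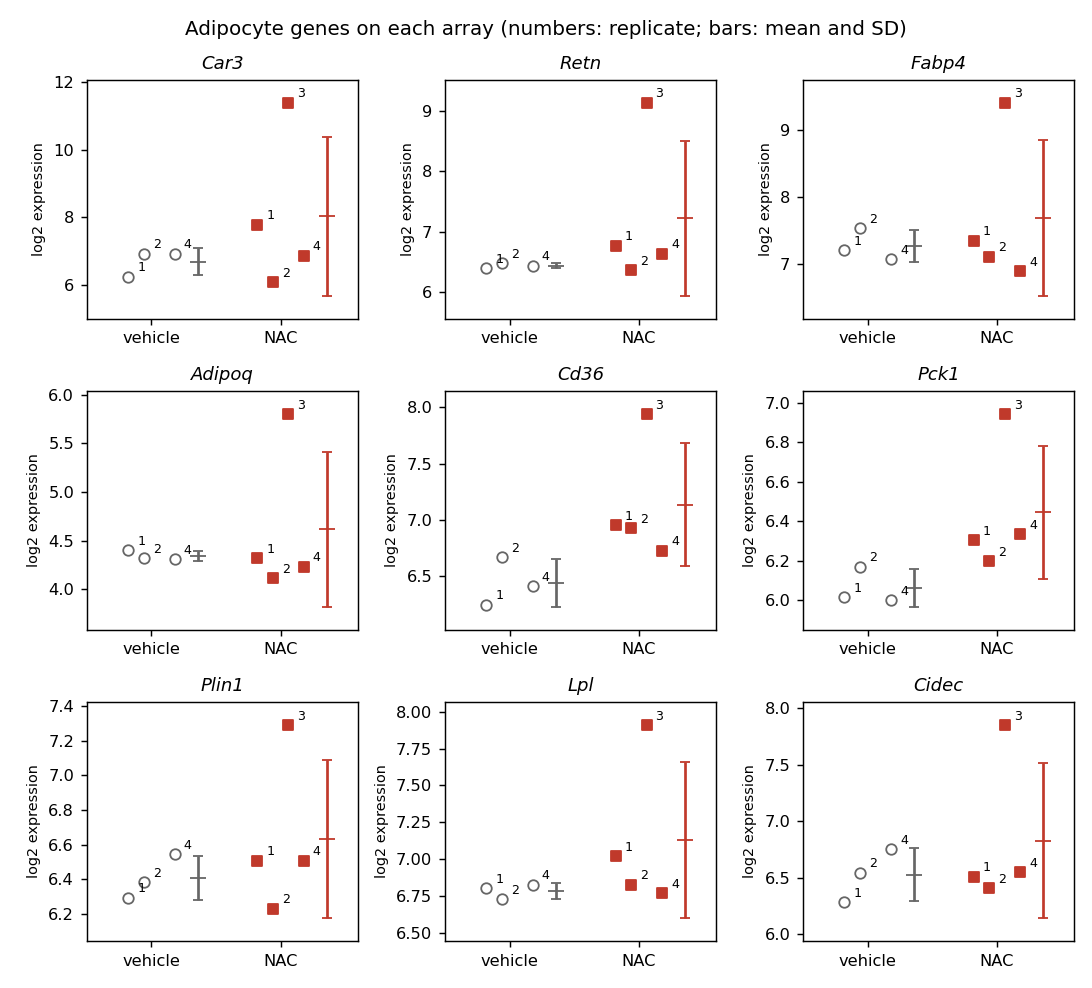
Log2 expression (y axis) of the 9 adipocyte genes on each array, with vehicle as open grey circles (n = 3), NAC as filled red squares (n = 4), replicate numbers beside the points and bars for the mean and SD of each group. NAC replicate 3 is the highest point in all 9 panels, and each panel has its own y axis that does not start at 0.

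The secreted proteins come first. Retn encodes resistin, a hormone released by mouse white adipocytes. Its level was 6.40, 6.48 and 6.44 on vehicle replicates 1, 2 and 4, and 6.77, 6.37, 9.13 and 6.64 on NAC replicates 1 to 4. The vehicle values spanned under 0.1 log2 units, NAC replicate 2 lay below all of them, and NAC replicate 3 was 2.36 above the next array. The vehicle mean was 6.44 ± 0.04 (SD, n = 3) and the NAC mean 7.23 ± 1.28 (SD, n = 4). The log2 difference of 0.79 (standard error 0.65) became 0.15 (standard error 0.11) without NAC replicate 3.

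Adipoq encodes adiponectin, the most adipocyte-restricted hormone among these genes. It was at 4.40, 4.32 and 4.31 on the vehicle arrays and at 4.32, 4.11, 5.80 and 4.23 on NAC replicates 1 to 4. The 6 arrays other than NAC replicate 3 spanned 0.29, the narrowest range among the 9 genes, and 3 NAC arrays lay below vehicle replicate 1. Its NAC-minus-vehicle difference was 0.27 (standard error 0.40), and -0.12 (standard error 0.06) without NAC replicate 3, so that its direction rests on that array.

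Of the genes of fatty acid supply, Lpl encodes lipoprotein lipase, which splits triglyceride on the capillary wall. Lpl was at 6.80, 6.73 and 6.83 on the vehicle arrays and at 7.02, 6.83, 7.91 and 6.77 on NAC replicates 1 to 4. NAC replicate 4 lay within the vehicle values, NAC replicate 2 equalled the highest of them, and NAC replicate 1 was next below NAC replicate 3. The difference was 0.35 (standard error 0.27), and 0.09 (standard error 0.07) without NAC replicate 3.

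Cd36 encodes a membrane transporter of long-chain fatty acids. It was at 6.24, 6.67 and 6.41 on the vehicle arrays and at 6.95, 6.92, 7.94 and 6.72 on NAC replicates 1 to 4. All 4 NAC arrays lay above all 3 vehicle arrays, also when NAC replicate 3 was set aside, although NAC replicate 4 was near vehicle replicate 2. The vehicle mean was 6.44 ± 0.21 (SD, n = 3) and the NAC mean 7.14 ± 0.55 (SD, n = 4), or 6.87 ± 0.12 (SD, n = 3) without NAC replicate 3. Its difference of 0.70 (standard error 0.29) became 0.43 (standard error 0.12) without that array, the largest of the 9 genes there.

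Fabp4 encodes the fatty acid-binding protein that carries fatty acids in the adipocyte cytosol. It was at 7.21, 7.54 and 7.08 on the vehicle arrays and at 7.36, 7.12, 9.41 and 6.90 on NAC replicates 1 to 4. The lowest of the 7 values was NAC replicate 4, and the highest after NAC replicate 3 was vehicle replicate 2. The difference of 0.42 (standard error 0.595) turned to -0.15 (standard error 0.16) without NAC replicate 3.

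The droplet proteins were Plin1, the perilipin that coats the large droplet and gates lipolysis, and Cidec (FSP27), which lets droplets fuse. Plin1 was at 6.29, 6.38 and 6.54 with vehicle and at 6.51, 6.23, 7.29 and 6.51 on NAC replicates 1 to 4. Apart from NAC replicate 3, its values with NAC lay across those with vehicle, and the difference of 0.23 (standard error 0.24) became 0.0083 (standard error 0.10) without that array. Cidec was at 6.29, 6.54 and 6.75 with vehicle and at 6.51, 6.41, 7.85 and 6.55 on NAC replicates 1 to 4. The other 3 NAC arrays lay inside the vehicle range, and the difference of 0.30 (standard error 0.36) turned to -0.038 (standard error 0.12).

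The enzymes were Pck1 and Car3. Pck1 encodes cytosolic phosphoenolpyruvate carboxykinase, which in fat supplies glycerol for triglyceride and in liver feeds glucose synthesis. It was at 6.02, 6.17 and 6.00 with vehicle and at 6.31, 6.20, 6.94 and 6.34 on NAC replicates 1 to 4. All NAC arrays were above all vehicle arrays, with or without NAC replicate 3, although NAC replicate 2 and vehicle replicate 2 lay within 0.1 of each other. The mean was 6.06 ± 0.09 (SD, n = 3) with vehicle and 6.28 ± 0.07 (SD, n = 3) on the NAC arrays other than replicate 3, a difference of 0.22 (standard error 0.06) that was 0.38 (standard error 0.18) with all 4.

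Car3 encodes carbonic anhydrase 3, a cytosolic enzyme abundant in adipocytes and in slow muscle. It was at 6.24, 6.92 and 6.92 with vehicle and at 7.78, 6.08, 11.39 and 6.86 on NAC replicates 1 to 4. NAC replicate 3 was 3.60 above the next array, NAC replicate 1, and NAC replicate 2 was the lowest of the 7. The 6 other arrays spanned 1.70, the widest range among the 9 genes. The difference of 1.34 (standard error 1.20) became 0.22 (standard error 0.46) without NAC replicate 3.

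**Figure D2:**
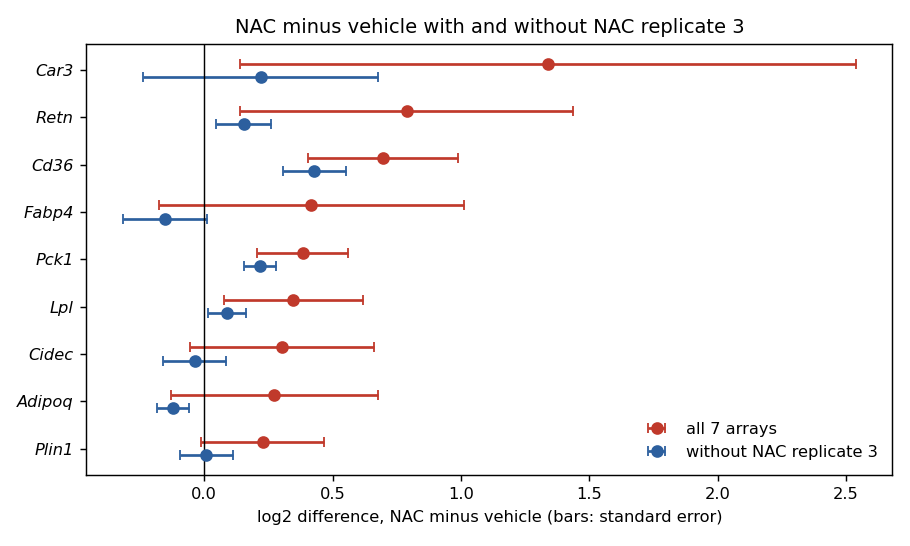
Log2 difference between NAC and vehicle (x axis, with its standard error as bars) for the 9 adipocyte genes, over all 7 arrays in red and without NAC replicate 3 in blue. All 9 red points lie above 0, from 0.23 to 1.34, while the blue points lie from -0.15 to 0.43, with Cd36 and Pck1 keeping the groups apart.

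Over all 7 arrays, each of the 9 genes had a higher mean with NAC, with a median log2 difference of 0.38, where 49.5% of all genes were higher and the median over all genes was 0.00. Without NAC replicate 3, 6 genes were higher and 3 (Fabp4, Adipoq and Cidec) lower, with a median of 0.09, where 49.3% of all genes were higher. The NAC and vehicle values did not overlap for 2 of the 9 genes, Cd36 and Pck1, with NAC above; over all genes this was so for 1.29%, and for 2.17% without NAC replicate 3. The reverse, all NAC arrays below, held for 0 of the 9 with or without that array and for 2.18% of all genes, or 3.16% without it. With limma, 0 of 18938 genes had a Benjamini-Hochberg adjusted p under 0.05 (0.0% of genes). Unadjusted p-values under 0.05 were had by 357 genes higher with NAC (1.89%) and by 479 lower (2.53%). Without NAC replicate 3 the count called was again 0, and 286 higher and 351 lower genes had such an unadjusted p. In whole tissue, more fat cells, more RNA per fat cell and RNA from other cells that make some of these genes cannot be told apart.

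Among the 6 arrays other than NAC replicate 3, the genes varied less and not all in the same way. NAC replicate 1 was the highest of the 6 for 4 genes (Car3, Retn, Cd36 and Lpl) and the lowest for 0, and its median deviation from the vehicle mean over the 9 genes was 0.24. NAC replicate 2 was the lowest for 4 genes, with a median deviation of -0.12. NAC replicate 4 had a median deviation of 0.10, and NAC replicate 3 had 1.46. Across these 6 arrays, 29 of the 36 gene pairs had a Pearson r above 0, with a median of 0.28 and a range from -0.68 (Adipoq and Cd36) to 0.88 (Car3 and Retn). Over all 7 arrays the same pairs ran from 0.82 upward, with a median of 0.95, because each pair shares the 1 far point of NAC replicate 3. These correlations describe 6 or 7 points that share arrays and normalization.

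**Figure D3:**
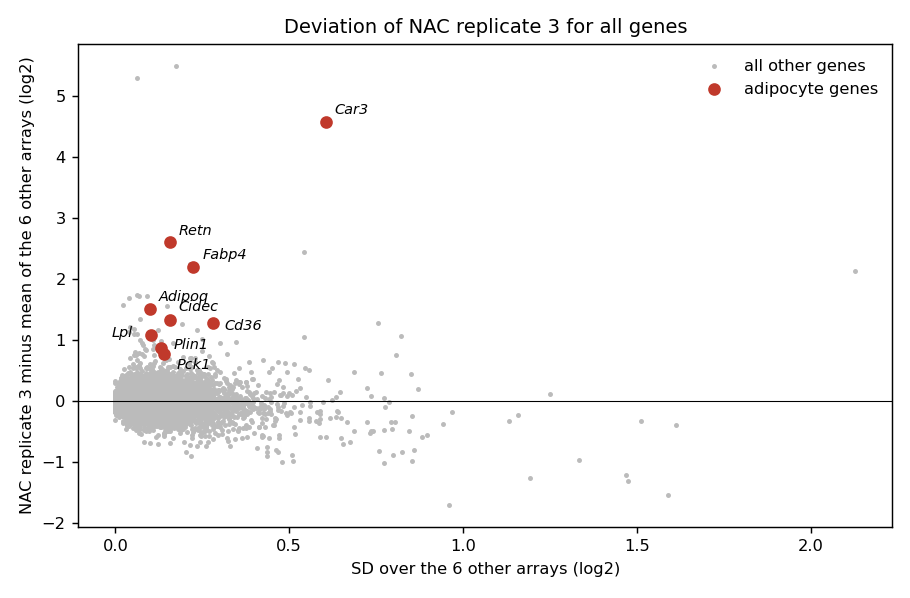
Excess of NAC replicate 3 over the mean of the 6 other arrays (y axis, log2) against the SD over those 6 arrays (x axis, log2) for all genes, with the 9 adipocyte genes in red and the others in grey. The 9 genes lie from 0.77 to 4.59 on the y axis, and Car3 has the widest spread of the 9 over the other arrays.

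Upstream sequence is shown for Plin1, Cidec and Pck1, because theirs were the windows of adipocyte genes that held one of the motifs searched. The 250 bases before an annotated transcript start were taken from RefSeq promoter windows of GRCm38.p6, in which 6 of the 9 genes have 7 windows (Cidec has a pair); Fabp4, Car3 and Lpl have no entry in the table. Both strands were searched for TTGCNNAA (a C/EBP-like motif), AGGNCA followed by any base and AGGNCA again (a direct repeat like that bound by PPAR and RXR), TNACGTCA (like a cAMP response element) and TATAAA (the TATA box), and no matches overlapped each other in the windows shown. TTGCNNAA was in 2 of the 7 windows and in 9.56% of all 32851 windows, and TNACGTCA in 1 of the 7 and in 2.52%. The direct repeat and TATAAA, which are in 0.338% and 12.4% of all windows, were in 0 of the 7. Sequences are written 5′ to 3′ on the strand of the gene, ending at the base before the start, and capitals mark the matches. The Plin1 window is chr7:79732777-79733026 (minus strand), with matches that begin 187 and 58 bases before the start; the Cidec window is chr6:113434765-113435014 (minus strand), with a match that begins 198 bases before; the Pck1 window is chr2:173152823-173153072 (plus strand), with a match that begins 93 bases before.
Plin1: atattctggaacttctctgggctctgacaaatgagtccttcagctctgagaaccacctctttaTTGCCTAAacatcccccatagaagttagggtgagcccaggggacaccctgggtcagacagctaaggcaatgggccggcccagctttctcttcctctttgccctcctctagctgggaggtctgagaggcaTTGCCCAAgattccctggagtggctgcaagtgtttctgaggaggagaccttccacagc
Cidec: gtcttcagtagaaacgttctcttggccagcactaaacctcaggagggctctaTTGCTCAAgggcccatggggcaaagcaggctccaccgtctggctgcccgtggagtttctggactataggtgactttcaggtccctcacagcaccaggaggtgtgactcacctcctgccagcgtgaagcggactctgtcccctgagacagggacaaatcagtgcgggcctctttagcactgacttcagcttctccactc
Pck1: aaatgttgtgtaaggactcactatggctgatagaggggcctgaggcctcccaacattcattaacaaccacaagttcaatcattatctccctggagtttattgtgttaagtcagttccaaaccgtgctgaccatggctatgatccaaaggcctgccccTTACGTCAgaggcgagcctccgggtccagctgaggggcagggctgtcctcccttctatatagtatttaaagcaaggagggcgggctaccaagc
The Cidec window shown lies within the annotated gene span, which reaches chr6:113435760. The other Cidec window, which begins just before that span on the gene's strand, held no match. Part of the Plin1 window, with its match nearer the start, also lies within the gene span, which reaches chr7:79732904. The matches are a description of letters. The excess on NAC replicate 3 was 0.88 for Plin1, 1.34 for Cidec and 0.77 for Pck1, while it was 2.62 for Retn, 1.52 for Adipoq and 1.29 for Cd36, whose windows held none of the 4 motifs.

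Genes of the wider adipocyte programme had a smaller median difference as a set, though not each singly. The 9 adipocyte genes were selected on their values on these arrays, so this contrast was partly fixed in advance and is a description. Of 99 listed genes of lipid droplets, lipid synthesis, lipid uptake, adipogenic transcription factors, other adipokines, and insulin signalling with hormone and metabolite receptors, 91 were measured. Of these, 58 were higher and 32 lower with NAC, with a median log2 difference of 0.02 against 0.00 over all genes, and 0 passed limma in either direction (smallest adjusted p 0.827). At an unadjusted limma p under 0.05, 5 of the 91 were higher and 1 lower, where 1.89% and 2.53% of all genes were. Without NAC replicate 3, 48 were higher with a median of 0.00. Then 2 were higher and 2 lower at an unadjusted p under 0.05, as were 286 and 351 of all 18938 genes. On NAC replicate 3 itself, 34 of the 91 (37.4%) were higher than on every other array, against 14.8% of all genes. The median excess of the 91 was 0.05.

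Lipid droplet and lipolysis genes outside the 9 differed little between NAC and vehicle. Of 14, 10 were higher and 4 lower with NAC, with a median of 0.04, or 0.01 without NAC replicate 3. On NAC replicate 3, 7 of the 14 (50.0%) were highest of the 7 arrays, against 14.8% of all genes. Their list mean was 8.19 there and 8.04 to 8.12 on the others. The triglyceride lipase Pnpla2 was at 9.54, 9.68 and 9.48 with vehicle and at 9.68, 9.68, 9.71 and 9.71 on NAC replicates 1 to 4, a difference of 0.13 (standard error 0.05) that was 0.12 without NAC replicate 3. NAC replicate 2 was just below vehicle replicate 2, so the groups overlapped. Bscl2 (seipin), at -0.10 (standard error 0.06), Plin5, at 0.05 (standard error 0.04), and the hormone-sensitive lipase Lipe, at 0.15 (standard error 0.15), followed in order of unadjusted p; without NAC replicate 3 they had -0.13, 0.03 and 0.19. Of 20 genes of fatty acid and triglyceride synthesis, 11 were higher and 9 lower (median 0.01, and -0.02 without NAC replicate 3). Acss2, which makes acetyl-CoA from acetate, was at 8.85, 9.17 and 8.95 with vehicle and at 8.65, 8.82, 8.79 and 8.65 with NAC, all NAC arrays lying below all vehicle arrays, as did 2.18% of genes. Its difference was -0.26 (standard error 0.08), with a limma adjusted p of 0.827, and -0.28 without NAC replicate 3. Dgat2, the last enzyme of triglyceride synthesis, was the 1 gene of the 91 to exceed all other arrays by over 1 log2 unit on NAC replicate 3, at 7.96 against at most 6.92. Its difference was 0.35 (standard error 0.27) with that array and 0.09 without. Vehicle replicate 2 and NAC replicates 1, 2 and 4 carried an identical Dgat2 value. Fasn, the fatty acid synthase, had 0.13 (standard error 0.09) and Gpam, the first acyltransferase of the pathway, -0.06 (standard error 0.05), which became 0.08 and -0.03 without NAC replicate 3.

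Of 12 measured genes of lipid uptake and caveolae, 8 were higher and 4 lower (median 0.02, and -0.01 without NAC replicate 3). NAC replicate 3 was the highest array for 6 of the 12 (50.0%), with a list mean of 8.32 against 8.19 to 8.30 on the others. The glycerol channel Aqp7 was at 6.21 on NAC replicate 3 and from 5.52 to 5.68 on the others, and had a difference of 0.21 (standard error 0.14) that was 0.07 without that array. Cav2 had -0.08, Cavin2 -0.21 and Lmf1, needed to mature lipoprotein lipase, 0.07, and without NAC replicate 3 these were -0.05, -0.34 and 0.09. Of 16 adipogenic transcription factors, 10 had a higher mean with NAC, 5 a lower and 1 an equal one, and their median was 0.02, or 0.00 without NAC replicate 3. Pparg was at 6.11, 6.11 and 6.07 with vehicle and at 6.08, 6.11, 6.49 and 6.11 on NAC replicates 1 to 4. Its difference of 0.10 (standard error 0.10) was 0.00 without NAC replicate 3. Vehicle replicates 1 and 2 and NAC replicates 2 and 4 carried an identical Pparg value, which limits what that 0.00 can show. Mlxipl (ChREBP), a glucose-responsive activator of lipid synthesis, had 0.12 (standard error 0.05), Cebpb 0.10 (standard error 0.10) and Stat5a -0.04 (standard error 0.05); without NAC replicate 3 they had 0.10, 0.12 and -0.01. Cebpa was chosen after its values were seen: it was at 6.87 on all 7 arrays, so these values do not follow it.

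Of 15 measured other adipokines, 11 were higher and 4 lower with NAC, with a median of 0.15 that was 0.09 without NAC replicate 3, and the list mean was 6.79 to 6.82 on the vehicle arrays, 6.90 to 7.00 on NAC replicates 1, 2 and 4 and 7.07 on NAC replicate 3. Rarres2, which encodes the adipokine chemerin, was at 8.42, 8.63 and 8.52 with vehicle and at 8.83, 8.70, 9.08 and 8.87 on NAC replicates 1 to 4. All NAC arrays were above all vehicle arrays, and the difference of 0.35 (standard error 0.09) was 0.28 without NAC replicate 3. Retnla, a resistin-like protein also made by macrophages, was at 8.16, 8.09 and 8.36 with vehicle and at 8.99, 8.45, 9.21 and 8.52 with NAC, a difference of 0.59 (standard error 0.20) that was 0.46 without NAC replicate 3. Its groups did not overlap either. All NAC arrays lay above all vehicle arrays for 2 of the 15 adipokines and for 1.29% of all genes, and both genes had a limma adjusted p of 0.827. Apln (apelin) had 0.15 (standard error 0.05) and Orm1, an acute-phase glycoprotein, 0.32 (standard error 0.19), or 0.13 and 0.15 without NAC replicate 3. The hormone Lep (leptin), named after its values were seen as a defining product of fat, was at 5.37 on NAC replicate 3 and from 4.65 to 4.95 on the others. Of 14 measured genes of insulin signalling and of hormone and metabolite receptors, 8 were higher and 6 lower (median 0.005), and 6 were higher without NAC replicate 3. No adrenergic receptor is among them. Adipor2, Irs2, Trarg1 and Akt2 had -0.06, 0.12, 0.11 and 0.04, and without NAC replicate 3 -0.06, 0.15, 0.01 and 0.08.

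Markers of brown adipocytes had near the same list mean on all arrays. Of 9 measured, 2 were highest on NAC replicate 3 (22.2%), and the list mean there was 5.86 against 5.81 to 5.82 with vehicle and 5.83 to 5.88 on the other NAC arrays. Ucp1, the uncoupling protein that defines brown fat, was at 5.50 on NAC replicate 3 and from 5.32 to 5.44 elsewhere. Vehicle replicates 1 and 2 and NAC replicates 1, 2 and 4 carried an identical Ucp1 value, which limits what its narrow range can show. Dio2, a deiodinase, had 0.24 (standard error 0.06), Cox8b 0.20 (standard error 0.08) and Cox7a1 -0.21 (standard error 0.09), each with an adjusted p of 0.827 in limma, and without NAC replicate 3 they had 0.26, 0.14 and -0.25. All NAC arrays lay above all vehicle arrays for 2 of the 9 (Dio2 and Cox8b; 1.29% of all genes) and below them for 1 (Cox7a1; 2.18%). Of 8 measured genes of fat cell precursors and adipose stroma, 3 were higher and 5 lower with NAC, with a median of -0.01. Dpp4, Dlk1, Pdgfra and Cd34 had -0.12, 0.12, -0.06 and 0.08. Without NAC replicate 3 the median was -0.05 and these genes had -0.14, 0.10, -0.12 and 0.01. That array was the highest for 4 of the 8 (50.0%), with a list mean of 8.84 against 8.65 to 8.78 on the others.

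Of 31 measured family relatives of the 9, NAC replicate 3 held the highest value for 10 (32.3%, against 14.8% of all genes), and their median excess was 0.02. The largest excess among them was 0.78, for the resistin relative Retnla, where Retn had 2.62 and Pck1, the lowest of the 9, had 0.77. Among the carbonic anhydrases, Car3 had an excess of 4.59 while Car2 and Car14 had -0.02 and 0.02, and Car4, which lung capillaries also carry, had 0.75, and the mitochondrial Car5a and Car5b had 0.35 and 0.28. The excess of Fabp5, the epidermal fatty acid-binding protein, was 0.24 against 2.21 for Fabp4, and that of the mitochondrial Pck2 was -0.09 against 0.77 for Pck1. Plin2, the droplet coat of most cells, had 0.23 against 0.88 for Plin1. These relatives were picked for comparison after their values were seen. By unadjusted p for NAC against vehicle, Scarb2 (-0.12, standard error 0.03), Retnla, Pck2 (-0.11, standard error 0.04) and Fabp2 (0.11, standard error 0.05) led the relatives, with -0.11, 0.46, -0.10 and 0.10 without NAC replicate 3, and 0 passed limma (smallest adjusted p 0.827).

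Markers of some other cell types were high together with the adipocyte genes on NAC replicate 3. All 10 lung epithelial markers were highest there, 7 of them by more than 1 log2 unit, with a list mean of 7.57 against 5.64 to 5.69 with vehicle and 5.67 to 5.74 on the other NAC arrays. All 13 skeletal muscle markers were highest there too, 3 of them by more than 1 log2 unit (Myh4, Tnnt3 and Atp2a1). Their list mean was 7.62 against 6.92 to 6.95 with vehicle and 6.88 to 6.97 on the other NAC arrays. Of 10 measured endothelial markers 7 were highest on NAC replicate 3, with a list mean of 7.77 against 7.51 to 7.54 with vehicle and 7.51 to 7.57 on the other NAC arrays. Of 11 macrophage markers 2 were, with a list mean of 7.68 against 7.39 to 7.55 with vehicle and 7.56 to 7.89 on the other NAC arrays, the highest being NAC replicate 1. The macrophage gene Lyz2 was at 11.02 on NAC replicate 1, 10.13 on NAC replicate 3 and from 9.13 to 9.58 on the others. Of 5 measured nerve markers 3 were highest on NAC replicate 3. Their list mean was 7.51 there, 7.25 to 7.28 with vehicle and 7.125 to 7.30 on the other NAC arrays. For smooth muscle, red blood cell and mast cell markers, the list mean on NAC replicate 3 was below the highest of the other arrays. Cyp2e1, listed as a liver gene and also made in fat, was at 8.24 on NAC replicate 3, 6.87 on NAC replicate 1 and from 5.43 to 5.67 elsewhere, and was thus high on the same arrays as Car3. Of the 9 measured genes of that liver and kidney list 2 were highest on NAC replicate 3, with a median excess of 0.00, and Fbp1 had the lowest excess at -0.49. Among sex-linked transcripts, Xist, made in female cells, was at 6.74 on NAC replicate 3 and from 4.88 to 5.30 on the others, while of the Y-linked genes Kdm5d was at 7.86 there and from 8.32 to 8.50 on the others, Eif2s3y at 9.12 and from 9.33 to 9.95, and Uty at 8.78 and from 8.59 to 8.97. Summarized log2 values hold no 0, so none of these markers can be called absent on any array. Their part in the values of the adipocyte genes was not tested.

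**Figure D4:**
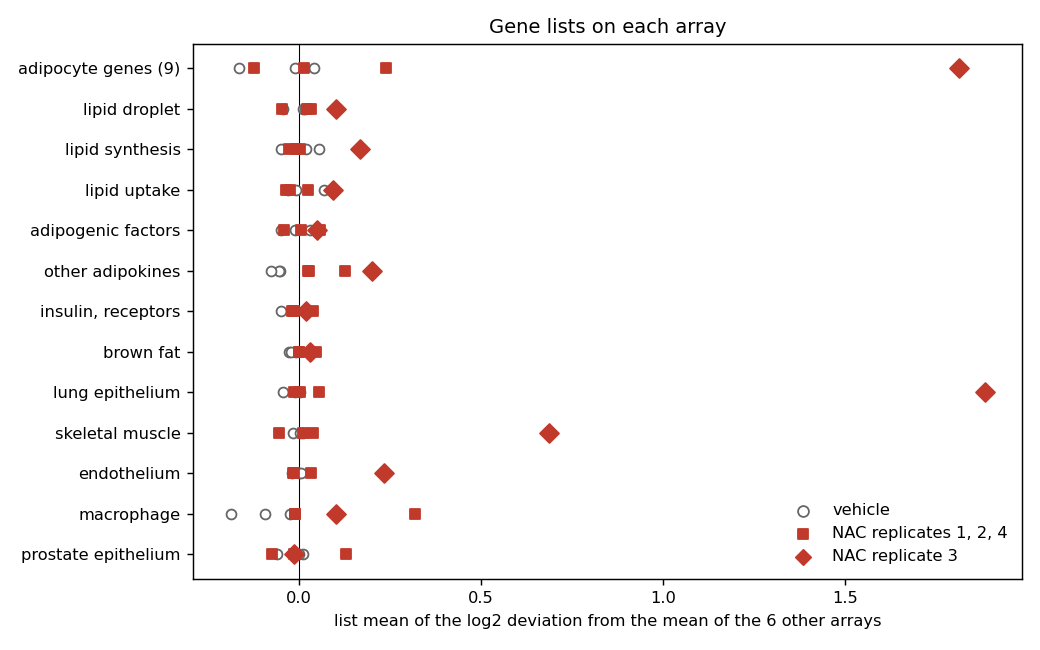
For each gene list (y axis), the list mean of log2 differences from the average of the 6 arrays other than NAC replicate 3 (x axis) is plotted by array, with vehicle as open circles, NAC replicates 1, 2 and 4 as squares and NAC replicate 3 as diamonds. On NAC replicate 3 the 9 adipocyte genes lie 1.81 above the other arrays, the lung list 1.88 and the skeletal muscle list 0.69, while the prostate epithelial list lies at -0.01.

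Genes whose pattern was most like that of the 9 adipocyte genes were ranked by Pearson r with the mean deviation of the 9. The 9 themselves and genes of provisional name, immunoglobulin genes and odorant or vomeronasal receptor genes were not ranked. Over the 7 arrays, among 224 genes with a range of at least 1, the nearest were Chil1 (r = 0.994), Cldn18 (0.991), Ttn (0.988), Myh4 (0.987), Sftpc (0.986), Hc (0.984), Sftpa1 (0.983) and Dgat2 (0.979), all high on NAC replicate 3 alone. Over the 6 arrays without it, among 1425 genes with a range of at least 0.5, they were S100a14 (0.975), Isx (0.957), Fn1 (0.952), Cd22 (0.934), Rwdd2b (0.933), Pygl (0.927), Ifi27l2a (0.921) and C4b (0.911), each highest of those 6 on NAC replicate 1. Fn1, which encodes fibronectin, was at 10.88 on NAC replicate 1 and at 10.36 on NAC replicate 3. The lists over 7 and over 6 arrays share 0 genes.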

How the data were processed

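RNA of 7 Nkx3.1-/- prostates was measured, and each array was assigned to vehicle (n = 3) or NAC (n = 4) by its title. The authors made the deposited log2 values from probe intensities by RMA (background correction, quantile normalization and median polish over perfect-match probes) with the Affy package; affy, RMA and limma are the tools in the submitters' processing notes. No genome build is given in the sources used here, and 0 columns lack a sample. Quantile normalization gives all arrays 1 distribution, so levels are relative, and summarized values do not show which genes are above background; arrays have no read depth, and their number limits the precision. In 40.0% of genes, 3 or more arrays carry an identical value.

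Of 20696 probe sets, 18950 name 1 gene, 678 several and 1068 none in the array annotation. Only those naming 1 gene were used, symbols were updated through Entrez identifiers (18910 genes found in the RefSeq gene table), and the probe set with the highest mean stood for a gene. NAC and vehicle were compared over all 18938 genes by a two-sided moderated test without covariates (limma 3.58.1, R 4.3.3, Benjamini-Hochberg adjusted p under 0.05), which was tested on simulated data. The standard errors of differences come from the same fit. Over these 7 mice, p-values of the fit set the difference between groups against the spread within groups, moderated over all genes.

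The adipocyte genes and all lists were chosen with earlier results of these data known. Named genes are the 9 adipocyte genes, up to 4 genes per list with the smallest unadjusted p, list genes exceeding all other arrays by over 1 log2 unit on NAC replicate 3, and the 8 nearest in pattern; others are named as chosen after their values were seen or as markers. Alternatives were subtracting array medians, a repeated quantile normalization, leaving out the dimmest 40% of genes, taking the median of a gene's probe sets, a replicate block, array weights, a trended robust fit, a required minimum change and leaving out each array.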

Additional observations from a re-analysis of the deposited data

Results flagged for a closer look

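As a share of the whole range of the 4 NAC arrays, the gap from NAC replicate 3 to the next NAC array was 0.854 for Retn, 0.879 for Adipoq and 0.904 for Cidec, the highest shares among the 9 adipocyte genes. Car3 had the largest excess but the lowest share, 0.68, since NAC replicate 1 lay 1.70 above NAC replicate 2. The genes were selected for their level on that array, so these shares describe it and are no test for an outlying sample.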

How the results depend on the processing

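The number of genes called by limma was 0 in every alternative run but 1: without NAC replicate 4 there was 1, the LIM protein Crip1, so leaving out single arrays gave 0 to 1. Among the 91 pathway genes it was 0 in all 15 alternatives. The median log2 difference of the 9 adipocyte genes, 0.38 over all arrays, ran from 0.09 (without NAC replicate 3) to 0.47 (without NAC replicate 4) when arrays were left out. It was 0.38 after subtracting array medians, 0.36 after quantile normalization again, 0.40 with array weights and 0.56 without dim genes, where 6 of the 9 genes were left. The replicate number as a block gave 0.09; NAC replicate 3 has no vehicle partner and drops out of that fit, so its values equal those without that array. Same-numbered vehicle and NAC arrays had an r over genes of 0.212, 0.286 and -0.067 for numbers 1, 2 and 4. Arrays of different numbers had -0.271 to 0.21, so numbers 1 and 2 had the highest values and number 4 did not. These values do not settle whether the numbers are pairs. The numbers were not taken as pairs in the main fit, and the block left the count of called genes at 0. Some recomputed differences of single adipocyte genes cannot depart from the main ones. Each gene has 1 probe set, so the median of probe sets repeats the main value, as does leaving out dim genes. With these repeats included, 99 of 105 recomputed differences kept their direction. The other 6 were Fabp4 (-0.15), Adipoq (-0.12) and Cidec (-0.038), each without NAC replicate 3 and with the replicate block; leaving out single arrays gave up to 0.68, 0.44 and 0.44 for these genes.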
